A study of Drosophila melanogaster with 23 samples.

Results

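The Rab genes of the fly genome were followed over adult life in the brain. Members were all genes of the count table whose symbol began with Rab followed by a digit or an X and held no hyphen, which gave 32 of the 17521 genes listed. The rule works on symbols alone, so that a Rab gene filed under another name (ltd, the fly Rab32) is not a member. The brains came from wild-type Canton-S flies (*Drosophila melanogaster*), with 18 dissected brains pooled in each library and no transgene or treatment named for any group. Groups of females aged 5, 20, 30 and 40 days held 3 libraries each. The male groups had the same ages and numbers, except for 2 libraries at 30 days, where the third had been removed for contamination. The 5-day-old flies of the same sex served as the young baseline. Libraries are named by sex, age in days and replicate letter, so that F30A is replicate A of 30-day-old females.

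Rab proteins are small GTPases that mark the membranes of the secretory and endocytic pathways. Each one is prenylated and cycles between a GTP-bound form on a membrane, where it recruits effectors such as tethers and motors, and a GDP-bound form that is extracted by GDP dissociation inhibitor (GDI). Guanine nucleotide exchange factors (GEFs) switch a Rab on and GTPase-activating proteins (GAPs) switch it off. In neurons, Rabs direct the traffic of synaptic vesicles, dense-core granules, receptors and autophagosomes.

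Counts were scaled to counts per 1e6 counts of the library (CPM) with TMM size factors, separately in each sex. Library totals ran from 6770442 to 28687450 counts with a median of 15628443. The medians of 5-day-old females, 5-day-old males and 30-day-old males were 24989680, 22000548 and 24180368 counts, and those of the other 5 groups lay between 12735231 and 15434202. A gene with no count in a library could have had up to 0.105 to 0.443 CPM there (3 counts of the library total, for counting error alone). The neuron markers elav, nSyb, brp, Syt1, para and Rdl were present in every library, with a summed level of 2034 to 6078 CPM. Transcripts of the midgut gene mex1 exceeded 10 CPM in 5 libraries, with 149 CPM in F30A, 75.9 in F40A, 55.1 in M40C, 16.4 in F5B and 15.9 in F30B, against at most 7.5 CPM in any other. Other gut transcripts were not limited to these libraries. The sum of 7 gut markers (mex1, the trypsins alphaTry, betaTry and epsilonTry, Jon65Aiii, Jon65Aiv and yip7) was 17190 CPM in F5B, 18670 in F30A, 4292 in F30B, 14550 in F40A and 5983 in M40C, and it was also 3278 CPM in M20A, 1766 in M30B, 1346 in F20B, 1340 in F30C and 1027 in M5C. Photoreceptor and fat body markers also varied within groups, the fat body sum in 30-day-old females for example between 12800 and 120000 CPM. In whole-brain RNA, fewer cells of a type and less RNA per cell cannot be told apart.

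Of the 32 Rab genes, 26 had enough counts to be tested in both sexes and 28 had at least 1 count. On a per-length scale (CPM per kb of annotated exon), the highest mean levels belonged to Rab1 (182 in females and 185 in males) and Rab7 (165 and 154). Rab1 carries vesicles from the endoplasmic reticulum to the Golgi and Rab7 governs late endosomes and their fusion with lysosomes. Rab11 of recycling endosomes stood at 136 in females and 137 in males, Rab5 of early endosomes at 129 and 137, and Rab2 of the Golgi at 117 and 125. Rab3, the Rab of synaptic vesicles, came sixth in both sexes, with a mean of 79.8 in females and 97.9 in males on this per-length scale. It spanned 46.0 to 130 CPM per kb over the female libraries, a broader range than that of Rab4, a Rab of fast endocytic recycling, at 54.5 to 66.7. At the low end, Rab23, known in mice as an inhibitor of Hedgehog signalling, averaged 2.07 in females and 2.44 in males, and RabX5 averaged 1.27 in each sex.

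**Figure D1:**
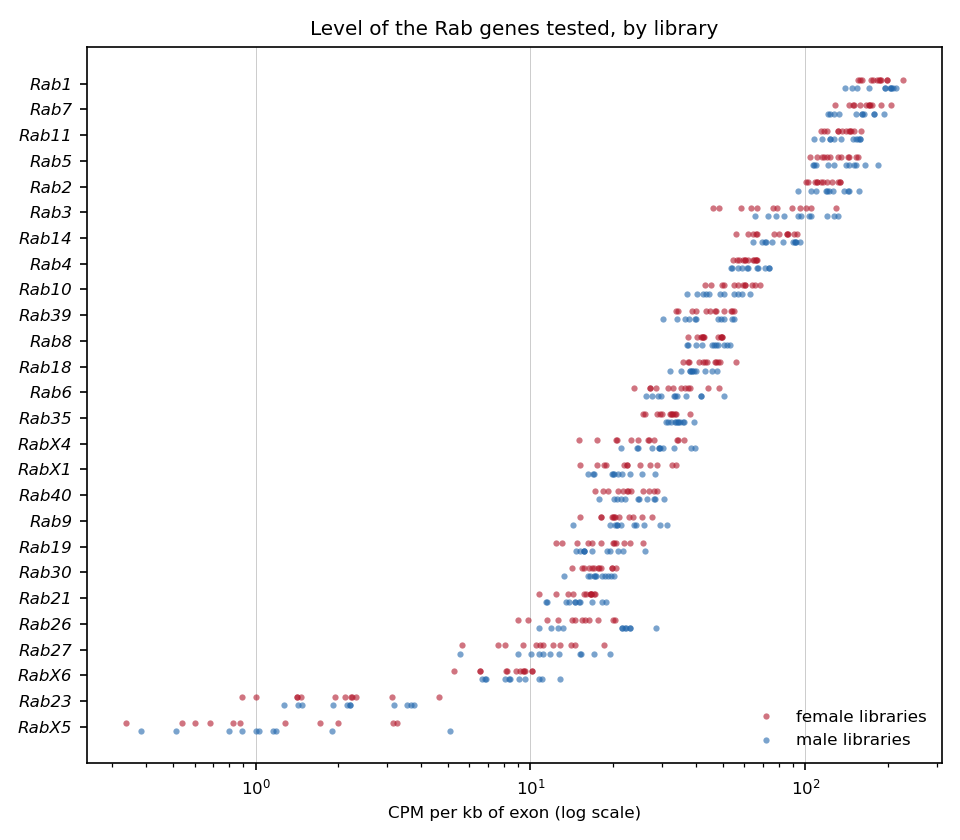
CPM per kb of exon (log axis) of the 26 tested Rab genes in each library, females in red above males in blue for each gene, sorted by the female mean. Rab1 and Rab7 lead with means of 182 and 165 CPM per kb in females, and RabX5 is last at 1.27; libraries in which RabX5 had no count are not drawn.

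The other 6 members were Rab9D, Rab9Db, Rab9E, Rab9Fa, Rab9Fb and RabX2. They lie on the X chromosome between positions 10417429 and 10952486 (BDGP6, the dm6 assembly) with 791 to 897 bases of exon each. Rab9Db, Rab9E, Rab9Fa and Rab9Fb had no count in any library. Rab9D had 29 counts over 7 libraries, and RabX2 had 57 counts over 12 libraries. The counting kept only reads that could be assigned to 1 gene without ambiguity, so that reads shared between these related genes would be missing from their counts, which are uncertain for that reason. Reads of tested members could also be lost, or mixed with those of a neighbour, where exons overlap. Exons of the antisense RNA gene CR45798 cover 41.1% of the exon bases of Rab1 and exons of Vti1a cover 36.2% of those of RabX6, on the opposite strand in both cases, and the strand setting of the counting is not given in the sources used here. Smaller overlaps were those of RabX4 with Kaz (9.3%, same strand) and of Rab26 with the antisense RNA gene CR46068 (4.6%, opposite strand). In the other tested members the overlap was at most 0.5%.

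The first question was which Rab genes varied with age at all. A gene was called over ages at a 5% false discovery rate (FDR, Benjamini-Hochberg over all genes tested) in the edgeR quasi-likelihood F test, and counted as changed in a comparison of ages when it also passed at 5% in the test of that comparison. In females 3 of the 26 Rab genes were called over ages, namely Rab3 (adjusted p = 0.0117), Rab26 (0.0309) and Rab40 (0.0478), against 14.5% of all 10505 genes tested. With the likelihood ratio test of DESeq2, 9 were called in females (Rab3, Rab5, Rab7, Rab10, Rab14, Rab19, Rab26, Rab40 and RabX4), against 30.2% of all genes. In males none of the 26 was called by edgeR, where 0.287% of 10799 genes were. At an unadjusted p under 0.05, 5 male members passed against 17.1% of all genes, and DESeq2 called 4 (Rab1, Rab2, Rab8 and Rab27) against 9.83%. The shares in females, 3 and 9 of 26, were close to those of all genes.

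Rab3 was the member with the strongest evidence of variation. It sits on synaptic vesicles, where it takes part in vesicle priming, and at the fly neuromuscular junction it controls how active zone proteins are distributed over release sites. The gene (FBgn0005586) lies on chromosome arm 2R, minus strand, at 10721335 to 10729203 in dm6. In females the Rab3 level was 376, 395 and 486 CPM at 5 days, 219, 286 and 251 CPM at 20 days, 173, 182 and 238 CPM at 30 days, and 296, 336 and 358 CPM at 40 days. Every library of 20-, 30- and 40-day-old females was below every 5-day-old one, and the 30-day-old libraries were also below all of those of 40 days. In males Rab3 had 493, 479 and 314 CPM at 5 days, 274, 362 and 293 CPM at 20 days, 388 and 394 CPM at 30 days, and 247, 353 and 449 CPM at 40 days. The male groups overlapped in all 4 comparisons, with M5C, M20A, M20C and M40A at the low end.

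In 20-day-old females Rab3 fell to 252 ± 33.2 CPM, against 419 ± 58.9 CPM at 5 days (SD, n = 3 each), a log2 fold change of -0.74 (SE 0.16, edgeR adjusted p = 0.0417). It was the only member that fell in that comparison, in which 1.83% of all genes fell. In 30-day-old females Rab3 fell to 198 ± 35.6 CPM, against the same 419 ± 58.9 CPM (log2 fold change -1.08, SE 0.17, edgeR adjusted p = 0.00897). At 40 days it averaged 330.0 ± 31.5 CPM (log2 fold change -0.35, SE 0.16, edgeR adjusted p = 0.21), which did not pass against 5 days. Rab3 also rose in 40-day-old females relative to 30 days (log2 fold change 0.74, SE 0.16, edgeR adjusted p = 0.0288). The time course of Rab3 in the female brain was therefore lowest at 30 days and higher again at 40 days. The call at 30 days was lost without F30B and held without any other single library (log2 fold change -1.20 to -0.94). The call at 20 days held in only 1 of the 12 fits that left out a library, the one without F30C. The rise at 40 days was lost without F30A, F30B, F40B or F40C. With both sexes in one fit the fall at 20 days and the rise at 40 days were lost, and with only the ages compared in the fit the falls at 20 and 30 days were lost (log2 fold changes -0.71 and -1.06).

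Rab26 was also lowest at 30 days in females. This Rab is found on synaptic vesicles and has been linked, in mammalian neurons and flies, to their delivery into autophagosomes. The gene (FBgn0086913) lies on 3L, plus strand, at 21318774 to 21335027 in dm6, and has the longest exon total of the members, 4353 bases. In females Rab26 had 68.7, 66.8 and 88.3 CPM at 5 days, 50.1, 63.2 and 61.8 CPM at 20 days, 39.1, 42.7 and 54.8 CPM at 30 days, and 71.1, 76.8 and 86.7 CPM at 40 days. The 30-day-old libraries lay below all 5-day-old and all 40-day-old ones. Rab26 fell to 45.5 ± 8.22 CPM in 30-day-old females, against 74.6 ± 11.9 CPM at 5 days (SD, n = 3 each; log2 fold change -0.71, SE 0.17, edgeR adjusted p = 0.0288). It rose to 78.2 ± 7.90 CPM in 40-day-old females, against 45.5 ± 8.22 CPM at 30 days (log2 fold change 0.78, SE 0.17, edgeR adjusted p = 0.0258). Against 5 days, its log2 fold change was 0.07 in 40-day-old females (95% interval -0.30 to 0.43) and -0.35 in 20-day-old females (95% interval -0.72 to 0.01), and neither passed the test. The fall at 30 days was lost without F5C, F30A, F30B, F40B or F40C, and the rise at 40 days without F30A, F30B, F40B or F40C. With both sexes in one fit the fall and the rise were lost (log2 fold changes -0.67 and 0.73), and with only the ages compared in the fit the fall was lost (-0.69).

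In males Rab26 had 99.9, 97.0 and 51.6 CPM at 5 days, 46.7, 96.2 and 56.9 CPM at 20 days, 93.4 and 100.1 CPM at 30 days, and 54.7, 93.7 and 125 CPM at 40 days. M5C, M20A, M20C and M40A had low values, as for Rab3, and the groups overlapped in all 4 comparisons. The male log2 fold change of Rab26 at 30 days against 5 days was 0.22, with a 95% interval of -0.68 to 1.13.

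**Figure D2:**
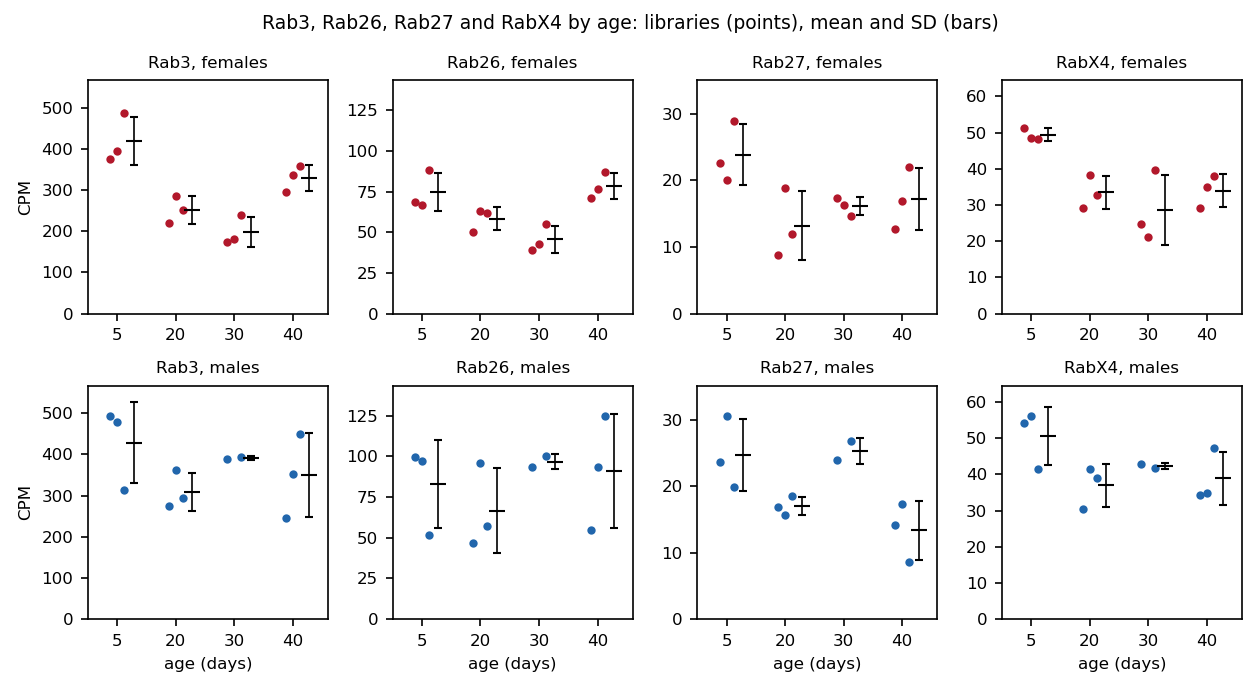
CPM of Rab3, Rab26, Rab27 and RabX4 against age in days, females above and males below; each point is a library and the bar is the mean with its SD (n = 3, or 2 for males of 30 days). Rab3 and Rab26 are lowest in 30-day-old females (198 and 45.5 CPM), whereas the male groups of both genes overlap in all 4 comparisons.

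Rab3 and Rab26 were the 2 members that fell in 30-day-old females against 5 days, where 4.82% of all genes fell, and the 2 that rose in 40-day-old females against 30 days, where 3.72% of all genes rose. At 40 days against 5 days edgeR called none of the 26 members in females, where 7.34% of all genes changed. There, 5 members had an unadjusted p under 0.05, against 26.2% of all genes, and DESeq2 called 3 (Rab10 and Rab19 higher, Rab14 lower) against 14.2%. DESeq2 called 2 members at 20 days against 5 days (8.21% of all genes), 6 at 30 days against 5 days (15.2%) and 2 at 40 days against 30 days (17.2%). Its additions at 20 and 30 days were Rab7, Rab10 and Rab19, which were higher than at 5 days, and RabX4, which was lower.

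Of the 6 neuron markers, the synaptic vesicle genes nSyb and Syt1 fell in 30-day-old females against 5 days, as Rab3 and Rab26 did. The nSyb level fell to 637 ± 141 CPM at 30 days, against 1201 ± 98.7 CPM at 5 days (log2 fold change -0.91, edgeR adjusted p = 0.017), and Syt1 fell by 1.03 on the log2 scale (adjusted p = 0.0202). Between 30 and 40 days, 4 of the 6 markers rose in females, namely elav, Syt1, para and Rdl, with log2 fold changes of 0.99 to 1.32. The summed level of the 6 markers was 3489 to 5505 CPM at 5 days, 2642 to 3867 CPM at 20 days, 2034 to 2763 CPM at 30 days and 4006 to 4818 CPM at 40 days in females. In males it was 2980 to 6078 CPM at 5 days, 2775 to 4416 CPM at 20 days, 4414 to 4789 CPM at 30 days and 2759 to 5800 CPM at 40 days. Markers of other cells moved at the same ages. The summed level of 5 glia markers (repo, Eaat1, alrm, moody and nrv2) was 2770 to 4870 CPM at 5 days, 2650 to 3010 CPM at 20 days, 2220 to 2300 CPM at 30 days and 1800 to 2110 CPM at 40 days in females. Of the 5, the glutamate transporter gene Eaat1 fell in 30-day-old females against 5 days (log2 fold change -1.02, edgeR adjusted p = 0.0171), Eaat1 and nrv2 fell at 40 days against 5 days, and none changed between 30 and 40 days. Of 4 hemocyte markers, PPO2 fell and NimC1 rose in 30-day-old females against 5 days (log2 fold changes -1.79 and 1.32), PPO1 and PPO2 fell at 40 days against 5 days, and PPO2 fell at 40 days against 30 days. The sum of 5 fat body markers (Yp1, Yp2, Yp3, Lsp2 and Rfabg) was 24700 to 67400 CPM in 5-day-old females and 8810 to 17400 CPM at 40 days. EdgeR called none of the 5. DESeq2 called 2 at 40 days against 5 days and 2 against 30 days, where it called 14.2% and 17.2% of all genes. The part of these markers in the changes of Rab3 and Rab26 was not tested. Whether the marker calls hold without the mex1 libraries or with a library left out was not examined.

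Set against the neuron marker sum within each library, Rab26 was nearly level over the ages in females. Its CPM was 1.60% to 1.97% of the neuron marker sum at 5 days, 1.63% to 1.92% at 20 days, 1.76% to 1.98% at 30 days and 1.69% to 1.80% at 40 days in females. This female ratio did not show the fall and rise of Rab26 in CPM, and the part of the markers in them was not tested. In males the Rab26 ratio was 1.595% to 1.863% at 5 days and 1.684% to 2.178% at 20 days. It was 1.95% and 2.268% at 30 days and 1.937% to 2.152% at 40 days. Every male library of 30 and 40 days was thus above every 5-day-old one. Rab3 was 8.84%, 10.8% and 11.2% of the sum in 5-day-old females. It was 7.39% to 8.30% at 20 days, 7.52% to 8.63% at 30 days and 7.39% to 7.43% at 40 days, so that every older female library was below every 5-day-old one also by this ratio. The 30-day-old females did not stand lower than those of 40 days on it. The 6 markers did not move together at 40 days against 5 days in females (log2 fold changes -0.479 to 0.866). The lowest was that of nSyb, with 1195, 1106 and 1303 CPM at 5 days and 804, 903 and 879 CPM at 40 days. Relative to nSyb alone, Rab3 was not lower in 40-day-old females than in those of 5 days. The ratio, and the order of the ages on it, therefore depends on the markers chosen. In males the Rab3 ratio was 7.887% to 10.55% at 5 days and 8.2% to 9.875% at 20 days. It was 8.097% and 8.932% at 30 days and 7.309% to 8.939% at 40 days, and every older group overlapped that of 5 days. These ratios were formed after the values had been seen and carry no test. The libraries F30A and F30B, which held mex1 transcripts, also had the lowest Rab3 and Rab26 levels, and without the 5 such libraries none of the calls of Rab3 and Rab26 held. The log2 fold changes at 30 days against 5 days were then -0.85 for Rab3 and -0.51 for Rab26, and those at 40 days against 30 days were 0.53 and 0.56. That of Rab3 at 20 days against 5 days was -0.79, no smaller than the -0.74 of all libraries, although the call was lost. F30C, which held other gut transcripts, was the only library left at 30 days, and it was taken to vary like the other groups.

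**Figure D3:**
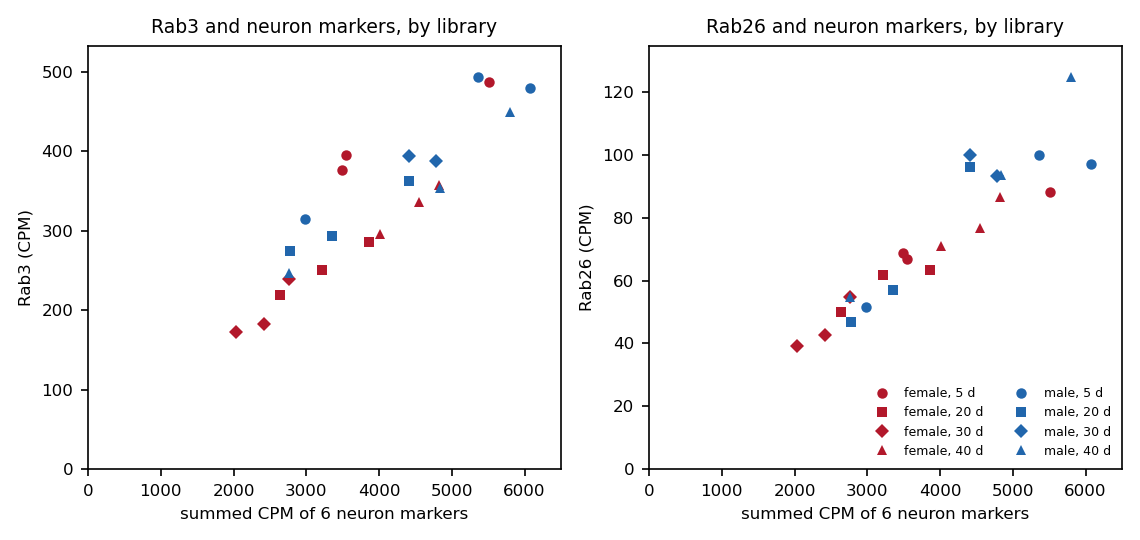
CPM of Rab3 (left) and Rab26 (right) against the summed CPM of 6 neuron markers, 1 point per library, with colour for sex and symbol for age. The points lie along a rising band in both panels, with 30-day-old females at the lower left (2034 to 2763 CPM of markers).

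None of the other exocytic Rabs (Rab8, Rab10 and Rab27) passed the edgeR test in either sex. Rab27, which docks secretory granules and lysosome-related organelles in mammals, had 22.7, 20.1 and 28.9 CPM at 5 days, 8.84, 18.9 and 11.9 CPM at 20 days, 17.3, 16.4 and 14.7 CPM at 30 days, and 12.7, 16.9 and 21.97 CPM at 40 days in females. In males it had 23.6, 30.5 and 19.9 CPM at 5 days, 16.8, 15.7 and 18.5 CPM at 20 days, 23.9 and 26.7 CPM at 30 days, and 14.1, 17.4 and 8.63 CPM at 40 days. The group means of Rab27 at 20 and 40 days were below those of 5 days in both sexes, but none of these comparisons passed. The lowest adjusted p of Rab27 was 0.0865, in 40-day-old males, at 13.4 ± 4.41 CPM against 24.7 ± 5.42 CPM at 5 days (SD, n = 3 each; log2 fold change -0.88, SE 0.25), and DESeq2 called this difference (adjusted p = 0.0248). Rab8 and Rab10, both of which act in transport from the Golgi and endosomes to the plasma membrane, did not pass the test. The log2 fold changes of Rab10 in females were 0.38, 0.36 and 0.42 at 20, 30 and 40 days against 5 days (edgeR adjusted p = 0.125, 0.0998 and 0.0575).

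Among the Rabs of the endoplasmic reticulum and Golgi, no member changed. Rab1 had 333, 339 and 286 CPM at 5 days, 409, 357 and 357 CPM at 20 days, 312, 317 and 329 CPM at 30 days, and 339, 289 and 281 CPM at 40 days in females. In males its level was 307, 279 and 368 CPM at 5 days, 386, 369.7 and 350.3 CPM at 20 days, 250.4 and 266 CPM at 30 days, and 367, 352 and 374 CPM at 40 days. The 2 libraries of 30-day-old males were thus the lowest male libraries for Rab1. Against 30 days, Rab1 was higher in 40-day-old males by 0.50 on the log2 scale (95% interval 0.15 to 0.84), with an adjusted p of 0.489 by edgeR and 0.0457 by DESeq2.

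Rab2 works at the Golgi and, in flies, in the fusion of late endosomes with lysosomes and in the axonal transport of presynaptic precursors. It had 226, 215 and 189 CPM at 5 days, 229, 199 and 228 CPM at 20 days, 189, 195 and 205 CPM at 30 days, and 186, 175 and 172 CPM at 40 days in females. Its male values were 209, 187 and 245 CPM at 5 days, 268, 236 and 247 CPM at 20 days, 161 and 179 CPM at 30 days, and 216, 205 and 204 CPM at 40 days. The 40-day-old females lay just below those of 5 days (log2 fold change -0.24, SE 0.10, edgeR adjusted p = 0.173), and the 30-day-old males were again the lowest. For Rab1 and Rab2 in females, the 95% intervals of all 4 comparisons stayed between -0.47 and 0.49 on the log2 scale. Rab6 and Rab30, the other Golgi members, had female log2 fold changes of -0.30 to 0.28 against 5 days.

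The 6 Rabs of early and recycling endosomes (Rab4, Rab5, Rab11, Rab14, Rab21 and Rab35) had median log2 fold changes of 0.02, -0.03 and -0.05 at 20, 30 and 40 days against 5 days in females, and none changed. Rab5, which sets up early endosomes, had 423, 378 and 326 CPM at 5 days, 452, 488 and 480.1 CPM at 20 days, 363, 413 and 449.5 CPM at 30 days, and 388, 347 and 366 CPM at 40 days in females. In males Rab5 had 380.4, 345 and 483 CPM at 5 days, 578, 474 and 444 CPM at 20 days, 336 and 338 CPM at 30 days, and 453, 399 and 519.7 CPM at 40 days. Its level was highest at 20 days in both sexes, by 0.33 in females (95% interval 0.06 to 0.61, edgeR adjusted p = 0.168) and 0.31 in males (-0.09 to 0.70) on the log2 scale against 5 days.

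Rab11, which returns cargo from recycling endosomes to the cell surface, had 255, 262 and 212 CPM at 5 days, 272, 238 and 247 CPM at 20 days, 290.1, 238 and 265 CPM at 30 days, and 264, 217 and 206 CPM at 40 days in females. Its male levels were 231, 223 and 286 CPM at 5 days, 286, 223 and 270.2 CPM at 20 days, 195 and 209 CPM at 30 days, and 278, 245 and 283 CPM at 40 days. The female groups of Rab11 overlapped in all 4 comparisons. Rab14, which acts between endosomes and the Golgi, had the most negative fold change of this class at 40 days in females, with 116 ± 10.3 CPM against 159 ± 10.2 CPM at 5 days (SD, n = 3 each; log2 fold change -0.46, SE 0.14, edgeR adjusted p = 0.0585).

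The late endosomal Rabs Rab7, Rab9 (return of receptors to the Golgi) and Rab39 (late endosomes and lysosomes) were all above their 5-day level in females of 20 and 30 days, although none passed. Rab7 had 246, 256 and 219 CPM at 5 days, 349.5, 321 and 296 CPM at 20 days, 290.5, 283 and 293 CPM at 30 days, and 268, 289.9 and 254 CPM at 40 days in females. All libraries of 20 and 30 days exceeded those of 5 days, with log2 fold changes of 0.42 (SE 0.11, edgeR adjusted p = 0.0602) at 20 days and 0.27 (SE 0.11, edgeR adjusted p = 0.146) at 30 days. DESeq2 called both. The median log2 fold change of Rab7, Rab9 and Rab39 was 0.30 at 20 days and 0.35 at 30 days in females. In males Rab7 had 225, 216 and 301 CPM at 5 days, 302, 278 and 273 CPM at 20 days, 209 and 205 CPM at 30 days, and 329, 274 and 261 CPM at 40 days. The median of the same 3 genes was -0.26 at 30 days against 5 days in males.

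Of the members outside these classes, Rab40, a Rab with a SOCS box that joins Cullin-5 ubiquitin ligases, was called over ages in females but changed in none of the 4 comparisons. Its female mean was 38.9 ± 1.33 CPM at 5 days, 48.2 ± 1.70 CPM at 20 days, 38.8 ± 5.73 CPM at 30 days and 32.4 ± 3.16 CPM at 40 days (SD, n = 3 each). Rab19, named here after its values were seen, was higher than at 5 days in every library of 20-, 30- and 40-day-old females. At 40 days it stood at 22.5 ± 2.75 CPM in females, against 14.8 ± 1.37 CPM at 5 days (log2 fold change 0.60, SE 0.18, edgeR adjusted p = 0.0609). In males it stood at 24.8 ± 3.73 CPM at 40 days, against 17.3 ± 1.17 CPM at 5 days (0.52, SE 0.16, edgeR adjusted p = 0.109). Neither passed, and the groups did not overlap in either sex. RabX4, whose function is little known, had 28.6 ± 9.78 CPM in 30-day-old females, against 49.5 ± 1.69 CPM at 5 days (log2 fold change -0.79, SE 0.21). It passed the test of that comparison (adjusted p = 0.0456) but not the test over ages (adjusted p = 0.0788), and its difference shrank to -0.32 without the libraries that held mex1 transcripts.

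**Figure D4:**
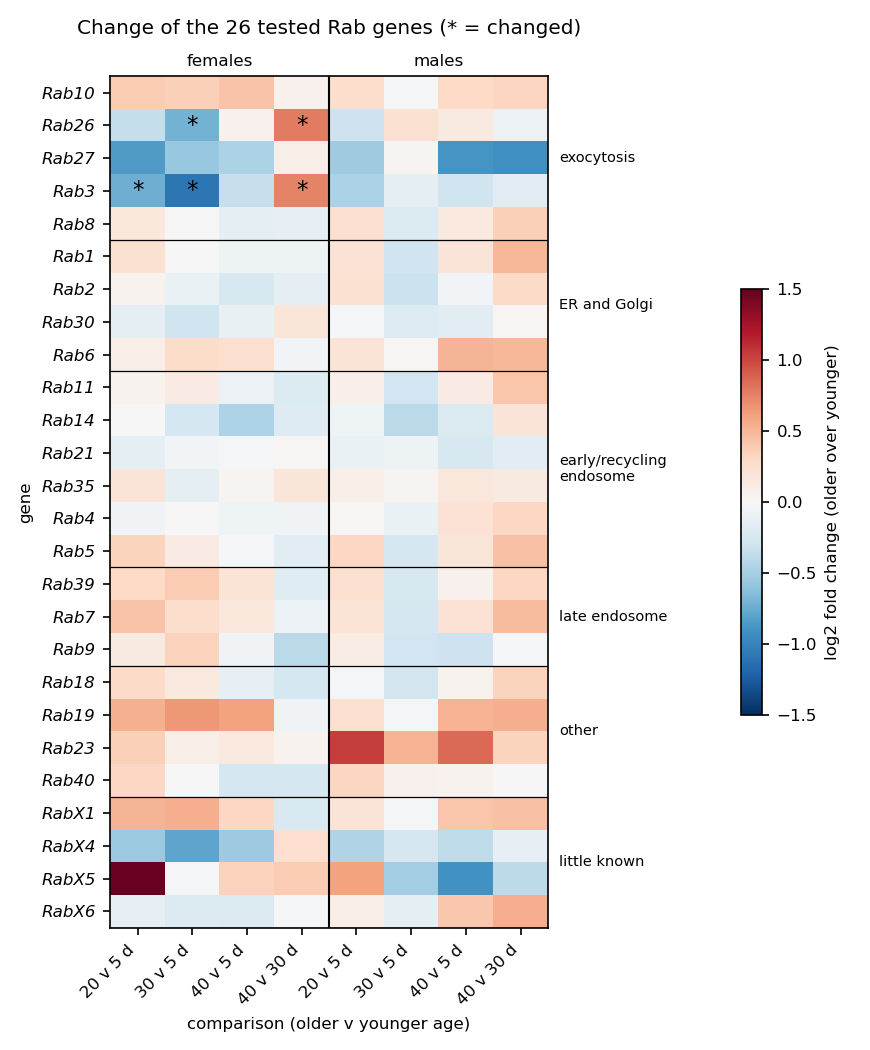
Log2 fold change (older over younger age; colour scale from -1.5 to 1.5) of the 26 tested Rab genes in rows, grouped by role, for 4 comparisons in females (left) and males (right); asterisks mark changed genes. The 5 asterisks are all on Rab3 (-0.74, -1.08 and 0.74) and Rab26 (-0.71 and 0.78) in females.

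In males none of the 26 Rab genes changed in any comparison by edgeR. At 20 days against 5 days 0.037% of all genes changed, 2 members had an unadjusted p under 0.05 against 13.6% of all genes, and DESeq2 called none against 2.04%. At 30 days against 5 days 0.0463% of all genes changed, 1 member (Rab14) had an unadjusted p under 0.05 against 6.26%, and DESeq2 called none against 0.619%. At 40 days against 5 days 0.287% of all genes changed, 5 members had an unadjusted p under 0.05 against 20.2%, and DESeq2 called 1, Rab27, against 7.39%. At 40 days against 30 days no gene changed at all (0%), 8 members had an unadjusted p under 0.05 against 8.46%, and DESeq2 called 1, Rab1, against 0.68%.

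The group means of 30-day-old males rest on 2 libraries. At 30 days against 5 days, 20 of the 26 had a negative log2 fold change in males (76.9%), against 53.1% of all genes, and the median was -0.16 for Rab genes and -0.02 for all genes. At 40 days against 30 days, 18 of the 26 were positive, against 50.8% of all genes, with medians of 0.31 for Rab genes and 0.01 for all genes. These comparisons share the 30-day-old libraries. The corresponding median for Rab genes in females was -0.01 at 30 days against 5 days and -0.05 at 40 days against 30 days. The sum of all Rab genes was 2501 and 2617 CPM in 30-day-old males, against 2737 to 3293 CPM in the other male libraries.

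The highest group mean was under 1.5 times the lowest for 20 of the 26 Rab genes in females, against 42.7% of all genes tested, and for 23 of the 26 in males, against 49.4%. The 95% interval of the log2 fold change lay within a 2-fold change in either direction for 20, 18 and 21 of the 26 at 20, 30 and 40 days against 5 days in females, and for 21, 23 and 23 in males, against 51.8% to 57.2% of all genes. Within a 1.5-fold change the interval lay for 12, 13 and 14 of the 26 in females and for 12, 9 and 13 in males, against 21.8% to 27.0% of all genes, and for the other members the interval reached beyond 1.5-fold. At 40 days against 30 days the 1.5-fold bound was met by 18 of the 26 in females, against 23.4% of all genes. In males it was met by 6 of the 26, near the 19.6% of all genes. For Rab23 and RabX5, the members with the fewest reads among those tested, no comparison in females or males met the 2-fold bound. The shares of all genes were not matched to the members for read count. They therefore do not show whether Rab genes varied less than genes of like level.

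Whether age acted differently in the sexes was tested as the difference of the female and male fold changes in 1 fit of all 8 groups. None of the 26 Rab genes passed at 20, 30 or 40 days against 5 days by edgeR or by DESeq2. EdgeR called 0% of 11332 genes at each age, and DESeq2 called 0.118%, 0.0526% and 0.105% of all genes. With no adjustment, p lay under 0.05 for 0, 8 and 1 members at 20, 30 and 40 days, against 4.02%, 8.75% and 6.28% of all genes. The 8 at 30 days were Rab3 and Rab26, with lower values in females, and Rab7, Rab9, Rab11, Rab18, Rab19 and Rab39, with higher ones. For Rab3 the log2 fold change at 30 days in this fit was -1.04 in females and -0.12 in males (female minus male -0.93, 95% interval -1.58 to -0.28, adjusted p = 0.558). For Rab7 it was 0.32 in females and -0.23 in males (female minus male 0.54, 95% interval 0.14 to 0.95, adjusted p = 0.558).

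**Figure D5:**
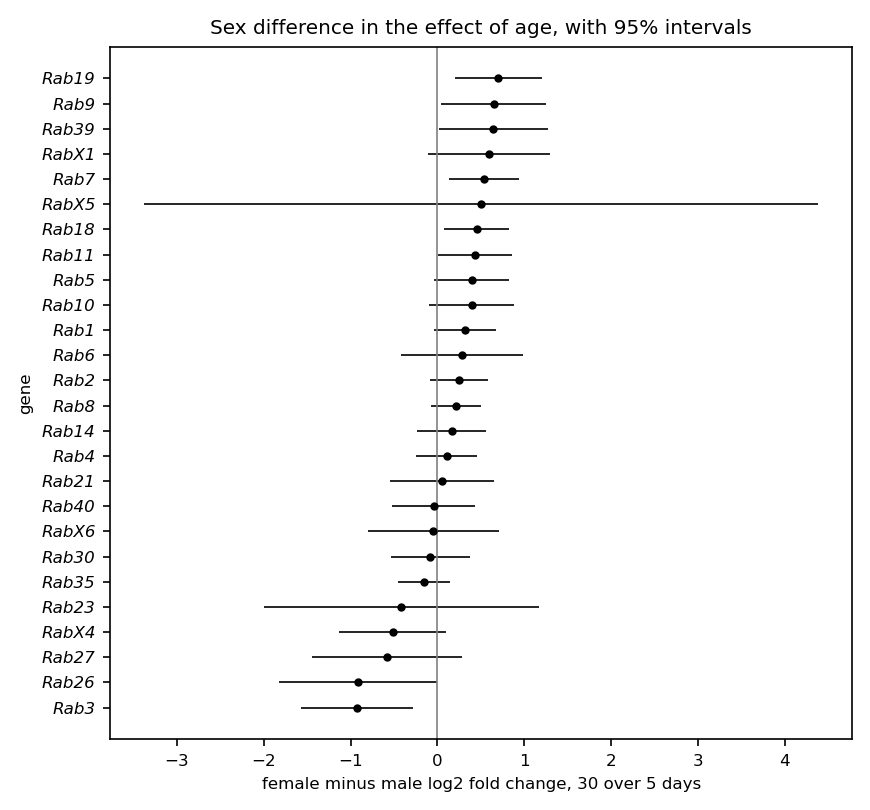
Female minus male log2 fold change at 30 days over 5 days for the 26 tested Rab genes, with 95% intervals from the fit of all 8 groups. Rab3 (-0.93) and Rab26 (-0.91) lie at the low end and Rab19 (0.70) at the high end, and none passed after adjustment over all genes.

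The genes that control the Rab cycle were followed from lists of 5 prenylation and GDI genes, 15 GEFs, 21 GAPs and 31 effectors, all of which could be tested. Prenylation, GDI, GEF and effector genes did not change in any of the 8 comparisons by edgeR. Pooled over the 8 comparisons, which share libraries, an unadjusted p under 0.05 was found in 3 of 40 tests of prenylation and GDI genes (7.5%), 24 of 120 of GEFs (20%), 37 of 168 of GAPs (22%) and 48 of 248 of effectors (19.4%), against 18.4% of the tests of all genes. DESeq2 called 1, 7, 16 and 12 of these tests (2.5%, 5.83%, 9.52% and 4.84%), against 7.76% for all genes. By unadjusted p, the shares of GEFs, GAPs and effectors were near the background. The DESeq2 shares lay on both sides of it. The lower shares of prenylation and GDI genes rest on 5 genes, too few to set this list apart from the background. Among the GAPs, 4 of 21 fell in 30-day-old females against 5 days, where 4.82% of all genes fell, and none rose. They were Evi5, which acts on Rab11 in the fly, plx, CG5337 and CG42795, which were listed as GAPs of the TBC domain family. Evi5 fell to 104 ± 8.79 CPM, against 160.3 ± 24.5 CPM at 5 days (SD, n = 3 each; log2 fold change -0.63, edgeR adjusted p = 0.0195). CG42795 fell by 1.07, plx by 0.79 and CG5337 by 0.60 on the log2 scale (adjusted p = 0.0257, 0.0295 and 0.0288). Of these, Evi5 and CG42795 rose in 40-day-old females against 30 days, by 0.92 and 0.89 on the log2 scale (adjusted p = 0.0169 and 0.0458), so that 2 of 21 GAPs rose where 3.72% of all genes did. The other 17 GAPs did not pass in any comparison by edgeR. DESeq2 called 7 of the 21 GAPs in 30-day-old females against 5 days, against 15.2% of all genes. Rab3-GEF, the exchange factor of Rab3, named here after its values were seen, had 199 ± 21.2 CPM in 30-day-old females, against 306 ± 90.1 CPM at 5 days (log2 fold change -0.62, adjusted p = 0.0926), which did not pass. Between 30 and 40 days plx and CG5337 did not pass (log2 fold changes 0.54 and 0.17). The part of the neuron and glia markers, some of which also fell at 30 days, in the changes of the GAPs was not tested. Whether the GAP calls hold without the mex1 libraries or with a library left out was not examined.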

How the data were processed

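Total RNA from pooled brains was sequenced as paired-end reads. The authors removed adapters and poor bases with Trimmomatic 0.35, used STAR for alignment to dm6 and obtained counts per gene with HTSeq, whose union mode drops ambiguous reads (versions of STAR and HTSeq are not given in the sources used here). The deposited values are raw counts per gene, with no normalization, in 1 table of 23 libraries, and the count table was used as deposited.

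Counts were analysed in R 4.3.3 with edgeR 4.0.16 (filterByExpr, TMM, robust quasi-likelihood fit), each sex alone with its 4 ages in one fit, and all tests were two-sided. A changed gene had to reach 5% FDR both in the test of the comparison and in the F test of the age factor. Sexes were compared by an interaction in 1 fit. Exon lengths and positions came from Ensembl annotation of BDGP6.54, matched by symbol. DESeq2 1.42.0, other size factors and filters, removal of a length trend or of mex1 libraries, a joint fit of the sexes, a fit of just 2 ages, a replicate block and each library left out were alternatives. Except for DESeq2, the alternatives were read out for the Rab genes only. Each library is a separate pool of brains, so that p-values measure the spread between pools.

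By the rule for named genes, values per library were given for changed members and for Rab1, Rab2, Rab3, Rab5, Rab7, Rab11 and Rab27, and regulators were named where they changed. The members, lists, alternatives and rule were chosen with earlier results of these data known. Tests were tried on simulated counts with changes larger than most of those reported here. That trial does not cover smaller changes. No sequences are shown.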

Additional observations from a re-analysis of the deposited data

How the results depend on the processing

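The number of Rab genes called moved with the processing in females. Over ages, 3 were called in females; DESeq2 gave 9, both sexes in one fit 5, removal of the mex1 libraries 0 and single libraries left out 1 to 5. At 20 days against 5 days the 1 call became 2 with DESeq2 or with the length trend removed, and 0 with only the 2 ages compared, without the mex1 libraries or with both sexes in one fit (0 to 1 with a library left out). At 30 days against 5 days the 2 calls became 6 with DESeq2, and 0 with only the 2 ages or without the mex1 libraries (0 to 3 with a library left out). At 40 days against 5 days, where none was called, DESeq2 gave 3, both sexes in one fit 2 and the length trend removed 1 (0 to 2 with a library left out). At 40 days against 30 days the 2 calls became 0 without the mex1 libraries and with both sexes in one fit (0 to 2 with a library left out). In males the count of 0 became 4 over ages and 1 at 40 days against 5 and against 30 days with DESeq2, and stayed 0 with any library left out. The replicate block changed no count (3 over ages in females, and 1, 2, 0 and 2 in the 4 comparisons). Libraries that share a letter were also compared by their deviations from the group means of log CPM. These deviations correlated from -0.635 to 0.643 in females and from -0.419 to 0.352 in males. All pairs of letter C in females were positive (0.122 to 0.537, median 0.302). The other letters gave both signs, and the letters were not taken as pairs. No fold change of a called Rab gene changed sign under any alternative run. The interaction gave 0 Rab genes in all 31 alternatives at each age.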
